A study of Homo sapiens with 12 samples.

Results

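Receptor tyrosine kinases were described here through 10 genes, MET, KIT, FLT3, CSF1R, AXL, TYRO3, MERTK, PDGFRB, IGF1R and INSR, out of 26485 genes in the count table. The members were taken by gene name, and every one of the 10 was found. The list was picked from receptors of known interest in leukemia with earlier results of these data in view, and MET was selected on its level in relapses after decitabine, so its values are given as a description without a test. Of the 10 genes, 8 passed the filter on low counts, and 7 of them, all but MET, are given with tests, whereas FLT3 and AXL stayed below it in all 12 libraries.

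The cells were HEL, an established human erythroleukemia line that carried lineage barcodes in all groups. Untreated cells (NT, n = 2) were kept with 0.1 µM DMSO. The other groups were cells that had regrown for about 30 days after 72 to 74 h of exposure to 1.8 µM doxorubicin (Doxo, n = 3), to doxorubicin with 6 µM cytarabine (Doxo+Cyta, n = 3), or to a triple combination in which 0.1 µM decitabine was added (Doxo+Cyta+DAC, n = 4). Decitabine traps the enzymes that methylate DNA. None of the groups analysed here received decitabine alone, and each relapse descended from the cells that survived the exposure, so a change inside cells and a change in which cells regrew cannot be told apart. In such bulk RNA, fewer cells that express a gene and less RNA of that gene per cell cannot be told apart either.

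Receptor tyrosine kinases span the cell membrane, and binding of a ligand outside the cell brings receptor chains together and switches on a kinase inside it. The kinase then recruits adaptor proteins that feed the RAS and PI3K pathways. In blood formation KIT and FLT3 serve stem and progenitor cells and CSF1R serves monocytes and macrophages, while MET, the receptor of hepatocyte growth factor, is best known from epithelial cells.

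Total counts lay between 12763582 and 19106235 per library, and 3 counts, the smallest level taken as detected, corresponded to 0.154 to 0.238 CPM (counts per 1000000 counts, scaled by the TMM method). All 13 markers of the erythroid and megakaryocytic lineage in the marker list were present, at a summed 8179 to 12250 CPM. The 5 epithelial markers summed to at most 0.349 CPM and the 6 fibroblast markers to at most 1.47 CPM in any library, COL1A1 being the only gene of these lists to reach 1 CPM. Of the T cell, B cell and endothelial markers, CD2, CD79A, PECAM1, CDH5 and VWF reached 1 CPM. The T cell markers summed to 20.0 to 55.7 CPM per library, the B cell markers to 0.963 to 6.07 CPM and the endothelial markers to 97.6 to 142 CPM. Doxo+Cyta replicate 20 stood farthest from the rest of its group, by 0.544 on the log2 scale over all tested genes (root mean square), followed by Doxo replicate 4 at 0.498, and the other libraries lay between 0.294 and 0.435. Results that rest on replicate 20 are given with and without it.

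The start regions of 3 members are shown because the enzymes that decitabine traps methylate cytosines in CG pairs. The 3 are MET, which was higher after decitabine, PDGFRB, which had the largest fall, and IGF1R, with a lower level and a CG-dense start. Each run holds 250 bases before and 50 bases after the RefSeq start site on GRCh38.p14, read 5′ to 3′ on the strand of the gene, with every CG in capitals. DNA methylation was not measured in these libraries.
MET, plus strand, chr7:116671946-116672245: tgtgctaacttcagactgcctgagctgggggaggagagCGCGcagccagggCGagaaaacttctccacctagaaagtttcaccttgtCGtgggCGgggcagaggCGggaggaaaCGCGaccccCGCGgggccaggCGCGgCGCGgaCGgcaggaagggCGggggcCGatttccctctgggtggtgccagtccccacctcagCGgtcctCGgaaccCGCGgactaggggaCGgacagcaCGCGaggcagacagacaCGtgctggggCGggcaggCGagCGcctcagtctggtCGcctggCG
PDGFRB, minus strand, chr5:150155796-150156095: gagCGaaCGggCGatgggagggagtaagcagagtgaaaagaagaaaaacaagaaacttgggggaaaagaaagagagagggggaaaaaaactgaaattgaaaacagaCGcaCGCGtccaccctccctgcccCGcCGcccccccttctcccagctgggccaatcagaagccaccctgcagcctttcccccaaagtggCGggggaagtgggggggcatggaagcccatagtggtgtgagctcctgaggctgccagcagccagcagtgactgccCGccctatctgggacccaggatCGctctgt
IGF1R, plus strand, chr15:98648289-98648588: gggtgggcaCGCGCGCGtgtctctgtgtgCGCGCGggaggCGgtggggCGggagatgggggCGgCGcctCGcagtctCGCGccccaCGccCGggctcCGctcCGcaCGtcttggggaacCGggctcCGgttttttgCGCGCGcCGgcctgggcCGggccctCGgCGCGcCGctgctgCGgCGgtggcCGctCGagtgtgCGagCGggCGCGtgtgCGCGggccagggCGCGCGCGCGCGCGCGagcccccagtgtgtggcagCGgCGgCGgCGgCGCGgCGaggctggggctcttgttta

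The MET window held 30 CG pairs, a number reached by 22.4% of all RefSeq windows of this length. The PDGFRB window held 11, below the median of 14 over all windows, and the IGF1R window held 55, which 0.373% of windows reach. CG, which reads the same on both strands, occurred at least once in 96.0% of all windows. Among the other members, KIT held 38, FLT3 34, MERTK 32 and INSR 36, and the genes with a pair of windows held 8 and 4 (CSF1R), 7 and 17 (AXL) and 49 and 10 (TYRO3). The receptors that were lower after decitabine thus had windows at both ends of this range.

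Per exon length the members spanned a wide range of levels. In NT, KIT stood highest at a mean of 47.0 CPM per kb, followed by IGF1R at 11.6, PDGFRB at 6.45, TYRO3 at 4.31 and MERTK at 3.93. CSF1R stood at 0.459 CPM per kb, MET at 0.0448, INSR at 0.0368 and AXL at 0.0287, and FLT3 was at 0. The ranges of TYRO3 (4.07 to 4.56) and MERTK (3.75 to 4.11) overlapped in NT, as did those of MET, INSR and AXL, so the order among these neighbours did not exceed the spread of the libraries. In Doxo+Cyta+DAC the order began with KIT at 34.5 CPM per kb, IGF1R at 6.96 and TYRO3 at 6.74, with overlapping ranges of the last pair. PDGFRB moved from the third place among the members in NT, Doxo and Doxo+Cyta to the fifth, at 1.28 CPM per kb. KIT ranked second of 57 receptor tyrosine kinase genes per exon length over the 12 libraries, behind TIE1. Of the summed CPM per kb of these 57 genes, KIT took 16.2 to 20.7% in Doxo+Cyta+DAC and 19.5 to 19.8% in NT. The PDGFRB share was 0.549 to 0.830% in Doxo+Cyta+DAC and 2.55 to 2.85% in NT.

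**Figure D1:**
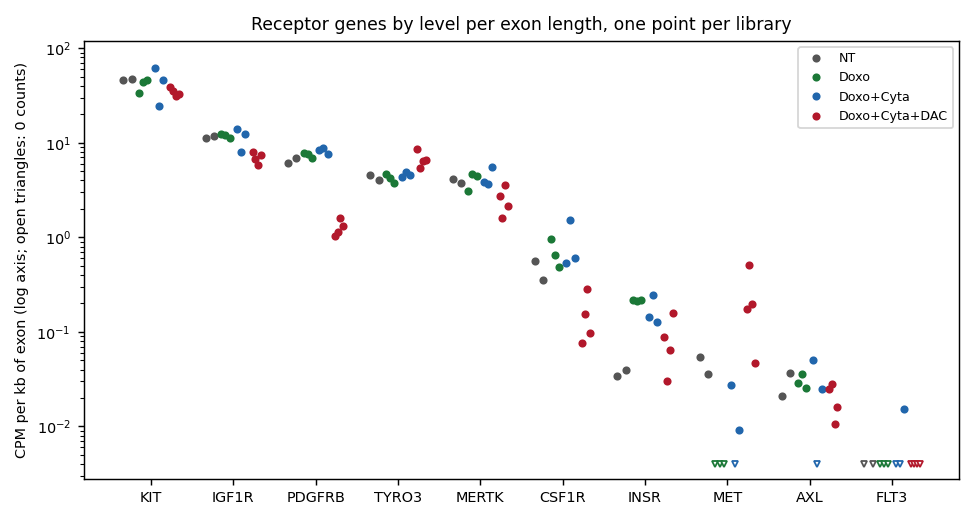
CPM per kb of exon on a log axis for the 10 receptor genes, ordered by their mean, with 1 point per library colored by group and open triangles at the lower edge for libraries with 0 counts. KIT stands highest in every library, and PDGFRB in Doxo+Cyta+DAC (1.04 to 1.59) lies below all other groups.

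MET, the receptor of hepatocyte growth factor, was a low gene throughout, with 113 counts in all 12 libraries. It held 7 and 4 counts in NT, 0 in each of the 3 Doxo libraries and 3, 0 and 1 in Doxo+Cyta. In Doxo+Cyta+DAC it held 19, 50, 25 and 4 counts, which correspond to 1.16, 3.44, 1.31 and 0.317 CPM against 0.360 and 0.238 CPM in NT. Thus 3 of the 4 Doxo+Cyta+DAC libraries lay above every other library, whereas replicate 33 lay within the NT range. Replicate 31 alone supplied 51.0% of the counts of its group.

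As a description, MET averaged 1.56 ± 1.33 CPM (SD, n = 4) in Doxo+Cyta+DAC and 0.299 ± 0.0862 CPM (SD, n = 2) in NT, and the ratio of the pooled levels was 5.16 with a 95% counting interval of 2.76 to 10.7. Without replicate 31 this MET ratio was 3.29 (1.69 to 7.03). Against Doxo+Cyta the ratio was 18.6 (7.05 to 69.7), and 11.9 (4.35 to 45.4) without replicate 31. Against Doxo, where no read was counted, MET was at least 8.16-fold higher when every Doxo library was set to 3 counts, and at least 4.87-fold higher without replicate 31. The intervals cover counting error only and not the spread between relapses. Because MET was selected on these same levels, the ratios and intervals are not a test of a rise. In the fit across all genes the log2 fold change of MET was 2.34 over NT and 4.10 over Doxo+Cyta.

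With 0 of 3 libraries above 0, the MET level of Doxo was lower than that of NT by at least 1.57-fold when every Doxo library was set to 3 counts. MET passed the filter on low counts only through its Doxo+Cyta+DAC libraries, the values it was selected on, so no test is given for it in the other comparisons either. With only 4 and 7 counts in NT, the depth limits what can be read from them.

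The gene body of MET spans chr7:116672405-116798386 on the plus strand of GRCh38 in the annotation used for counting. Among the few tested protein-coding genes within 1 Mb (TFEC, TES, CAV2, CAPZA2 and ST7), 1 passed the test in Doxo+Cyta+DAC over NT, where 48.7% of all tested genes passed. It was TES, upstream of MET, with averages of 49.7 CPM in Doxo+Cyta+DAC and 27.6 CPM in NT (0.85 on the log2 scale, SE 0.13, edgeR adjusted p = 0.000164). TES also passed in Doxo over NT (0.60, SE 0.14, adjusted p = 0.0146), where MET had 0 counts, and in Doxo+Cyta+DAC it passed over Doxo+Cyta (0.47, SE 0.11, adjusted p = 0.00232) but not over Doxo (0.24, SE 0.11, adjusted p = 0.0733). CAPZA2 and ST7, downstream, gave -0.16 (SE 0.14, adjusted p = 0.351) and 0.07 (SE 0.12, adjusted p = 0.688) over NT, and CAV2, between TES and CAPZA2, gave -0.33 (SE 0.33, adjusted p = 0.422). TFEC gave 0.09 (SE 0.37, adjusted p = 0.856) over NT, 1.03 (SE 0.34, adjusted p = 0.0182) over Doxo and 0.89 (SE 0.34, adjusted p = 0.0344) over Doxo+Cyta. CAV1, WNT2, CFTR and ASZ1 stayed below the filter on low counts.

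Of all tested genes, LINC01215 followed the log2 CPM of MET most closely over the 12 libraries (Pearson r = 0.969), then ASXL1, a chromatin regulator mutated in myeloid disease (0.956), PCNT, a centrosome scaffold (0.941), GMNN, an inhibitor of replication licensing (0.941), and AGAP6 (0.939). LINC01215 stood at 21.9, 40.0, 25.2 and 20.1 CPM in Doxo+Cyta+DAC and at 14.4 and 16.0 CPM in NT, with its highest value, like that of MET, in replicate 31. ASXL1 spanned a narrower range, with 217 to 272 CPM in Doxo+Cyta+DAC and 208 CPM in both NT libraries. These likenesses were chosen as the highest of 14164 genes and share the grouping of the libraries, so they describe the pattern only.

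**Figure D2:**
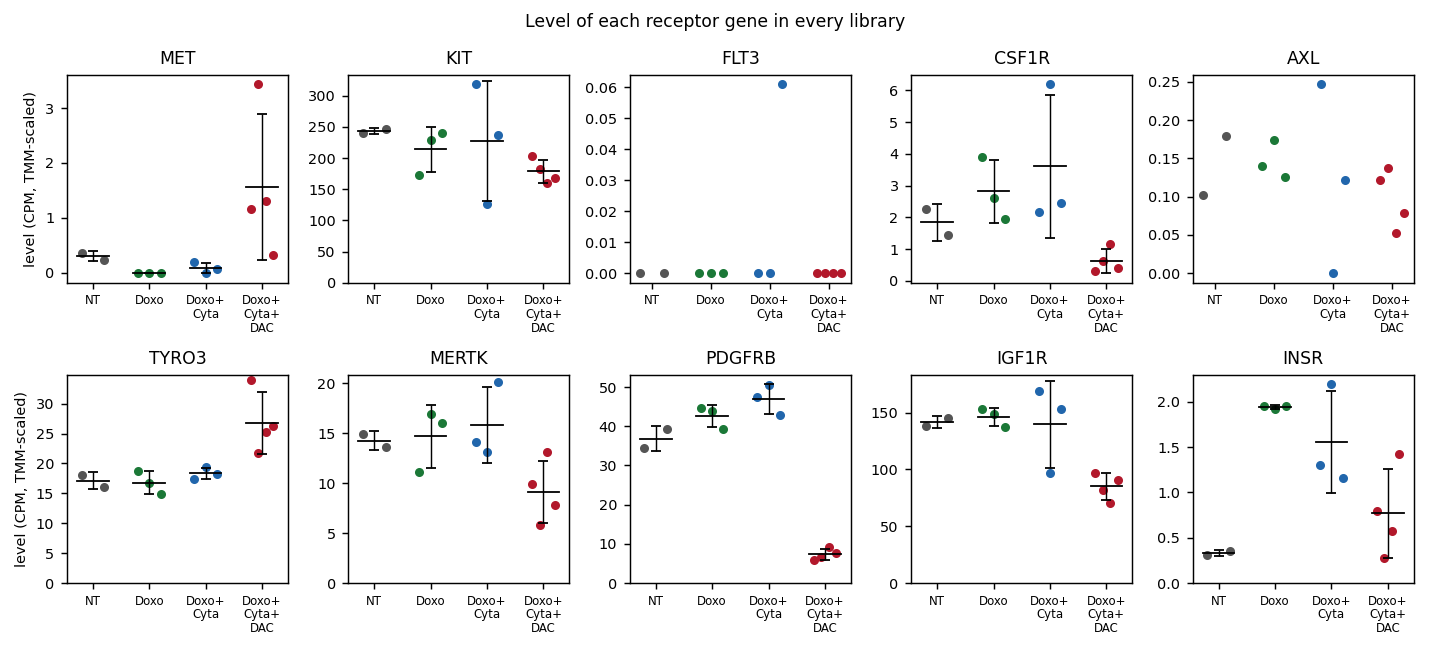
CPM (TMM-scaled, linear axes that include 0) of each of the 10 receptor genes in every library, with 1 point per library; horizontal lines and bars give the mean and SD of a group, which are left out for FLT3 and AXL because of their few counts. PDGFRB in Doxo+Cyta+DAC (5.94 to 9.08 CPM) stands apart from all other libraries, whereas 1 MET library of that group overlaps NT.

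PDGFRB, the beta receptor of platelet-derived growth factor, showed the largest change after decitabine among the 7 tested members other than MET. Its levels were 34.5 and 39.2 CPM in NT, 44.5, 43.8 and 39.3 CPM in Doxo and 47.5, 50.6 and 43.0 CPM in Doxo+Cyta. In Doxo+Cyta+DAC PDGFRB stood at 5.94, 6.53, 9.08 and 7.60 CPM, and every one of these libraries lay below every library of the other groups. The log2 fold change of PDGFRB was -2.33 (SE 0.15, edgeR adjusted p = 3.36e-07) over NT, -2.54 (SE 0.14, adjusted p = 7.87e-08) over Doxo and -2.69 (SE 0.14, adjusted p = 2.37e-08) over Doxo+Cyta. On the linear scale the mean of 7.29 ± 1.38 CPM (SD, n = 4) was 0.198 of the NT mean of 36.9 ± 3.31 CPM (SD, n = 2). The call held in all 18 alternative fits, with log2 fold changes over NT from -2.46 to -2.24. Doxo and Doxo+Cyta libraries lay above both NT libraries, but neither difference passed the test (log2 fold change 0.21, SE 0.16, adjusted p = 0.419, and 0.35, SE 0.16, adjusted p = 0.239).

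CSF1R, the receptor of macrophage colony-stimulating factor, lies next to PDGFRB on the minus strand of chromosome 5, with 466 bases between the annotated genes, and also fell. It held 2.26 and 1.43 CPM in NT, 3.91, 2.62 and 1.96 CPM in Doxo, 2.16, 6.20 and 2.44 CPM in Doxo+Cyta, and 0.306, 0.619, 1.15 and 0.396 CPM in Doxo+Cyta+DAC. All 4 decitabine libraries of CSF1R lay below the other 8, on 5 to 22 counts each. The fall was -1.52 (SE 0.54, edgeR adjusted p = 0.0316) over NT, -2.12 (SE 0.48, adjusted p = 0.00176) over Doxo and -2.47 (SE 0.47, adjusted p = 0.000459) over Doxo+Cyta on the log2 scale. Relative to NT the CSF1R call was lost without NT replicate 1 (-1.15, adjusted p = 0.244) and without Doxo+Cyta+DAC replicate 30, 31 or 33 (adjusted p = 0.0792, 0.0565 and 0.0691). Over Doxo+Cyta it was -1.83 (adjusted p = 0.00251) without replicate 20, the library with 6.20 CPM.

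KIT, the stem cell factor receptor, was abundant in all groups and did not pass the test in any comparison. Its levels were 240 and 246 CPM in NT, 173, 229 and 241 CPM in Doxo, 319, 126 and 237 CPM in Doxo+Cyta, and 203, 182, 161 and 168 CPM in Doxo+Cyta+DAC. The decitabine libraries of KIT lay below both NT libraries but overlapped Doxo and Doxo+Cyta, and the log2 fold change over NT was -0.45 (SE 0.25, edgeR adjusted p = 0.155). The lowest KIT value, 126 CPM, came from Doxo+Cyta replicate 20. Without that library KIT passed the test over NT (-0.47, SE 0.14, adjusted p = 0.0131) and over Doxo+Cyta (-0.64, SE 0.14, adjusted p = 0.0015), and it also passed over NT when only these groups were fitted (-0.48, SE 0.10, adjusted p = 0.00178). KDR, a receptor of vascular endothelial growth factor whose gene lies 337697 bases from KIT, stood at 52.1, 84.7, 66.6 and 47.6 CPM in Doxo+Cyta+DAC and at 37.9 and 40.9 CPM in NT (0.67 on the log2 scale, SE 0.20, adjusted p = 0.0134), and PDGFRA on the other side averaged at most 0.0961 CPM in any group.

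FLT3, the receptor of FLT3 ligand and a frequent target of mutations in AML, was listed with 0 counts in 11 libraries and with 1 count in Doxo+Cyta replicate 22. The 3 counts that define detection correspond to at most 0.238 CPM, so FLT3 was not detectable at this depth. AXL held between 0 and 4 counts per library, or at most 0.247 CPM, with overlapping ranges in all groups. No fold change is given for FLT3, which had at most 1 count. In the alternative fit without the filter on low counts, AXL did not pass in any of the 6 comparisons (edgeR adjusted p from 0.648 to 1.0), nor did FLT3 (0.426 to 1.0).

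The TAM receptors, TYRO3, AXL and MERTK, bind GAS6 and take part in the uptake of dead cells, and TYRO3 and MERTK also bind protein S. TYRO3 rose after decitabine. It held 18.1 and 16.1 CPM in NT, 18.7, 16.8 and 15.0 CPM in Doxo, 17.4, 19.4 and 18.2 CPM in Doxo+Cyta, and 33.9, 21.7, 25.2 and 26.3 CPM in Doxo+Cyta+DAC, so that the decitabine libraries lay above all 8 others. The log2 fold change of TYRO3 was 0.64 (SE 0.17, edgeR adjusted p = 0.00723) over NT, 0.67 (SE 0.15, adjusted p = 0.00171) over Doxo and 0.55 (SE 0.15, adjusted p = 0.00624) over Doxo+Cyta. The call over NT was lost without NT replicate 2 (0.56, adjusted p = 0.0854).

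MERTK moved the other way, with more spread. Its levels were 14.9 and 13.6 CPM in NT, 11.1, 16.9 and 16.0 CPM in Doxo, 14.1, 13.1 and 20.1 CPM in Doxo+Cyta, and 9.86, 5.78, 13.1 and 7.84 CPM in Doxo+Cyta+DAC. Replicate 32 of the decitabine group, at 13.1 CPM, lay within the range of the Doxo libraries. MERTK fell over Doxo (log2 fold change -0.67, SE 0.24, edgeR adjusted p = 0.0279) and over Doxo+Cyta (-0.78, SE 0.24, adjusted p = 0.0129), and missed the threshold over NT (-0.63, SE 0.27, adjusted p = 0.0686). The MERTK calls changed when single libraries were left out. The call over Doxo was lost without Doxo replicate 5 or 6 (adjusted p = 0.109 and 0.0864) or Doxo+Cyta+DAC replicate 31 or 33 (adjusted p = 0.0701 and 0.0681), and that over Doxo+Cyta without Doxo+Cyta replicate 22 (adjusted p = 0.0762). Over NT, MERTK passed in 7 of 18 alternative fits, among them the fits without Doxo replicate 4 (adjusted p = 0.0465), Doxo+Cyta replicate 20 (adjusted p = 0.0494) and Doxo+Cyta+DAC replicate 32 (adjusted p = 0.0159).

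The insulin receptor family was represented by IGF1R, the receptor of insulin-like growth factor 1, and INSR, the insulin receptor. IGF1R held 138 and 146 CPM in NT, 153, 148 and 137 CPM in Doxo, 169, 96.6 and 153 CPM in Doxo+Cyta, and 97.3, 81.9, 70.4 and 91.0 CPM in Doxo+Cyta+DAC. The decitabine libraries of IGF1R lay below NT and Doxo, and 1 of them lay just above Doxo+Cyta replicate 20. IGF1R fell by 0.74 (SE 0.18, edgeR adjusted p = 0.00406) over NT, by 0.78 (SE 0.16, adjusted p = 0.000905) over Doxo and by 0.72 (SE 0.16, adjusted p = 0.00163) over Doxo+Cyta on the log2 scale, and these calls held in all 18 alternative fits, although none of the falls reached a fold of 2. Antisense RNAs are annotated within the gene body of IGF1R. Because counting did not use strand, any of their reads that fall on IGF1R exons cannot be told apart from those of IGF1R. Whether they overlap its exons was not examined. Genes on the opposite strand are also annotated within FLT3, CSF1R, AXL and MERTK.

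INSR was the member that changed after chemotherapy without decitabine. It stood at 0.309 and 0.357 CPM in NT, at 1.95, 1.92 and 1.96 CPM in Doxo, at 1.30, 2.20 and 1.16 CPM in Doxo+Cyta and at 0.796, 0.275, 0.577 and 1.43 CPM in Doxo+Cyta+DAC. The 3 Doxo values of INSR were nearly equal and lay above both NT values, which rested on 6 counts each and lay below the level that the filter on low counts asks for. The log2 fold change over NT was 2.52 (SE 0.54, edgeR adjusted p = 0.0120) in Doxo, 2.19 (SE 0.55, adjusted p = 0.0619) in Doxo+Cyta and 1.16 (SE 0.57, adjusted p = 0.108) in Doxo+Cyta+DAC. INSR was lower in Doxo+Cyta+DAC than in Doxo (-1.37, SE 0.39, adjusted p = 0.00813) and than in Doxo+Cyta (-1.04, SE 0.40, adjusted p = 0.0370).

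The INSR call in Doxo over NT was lost when either NT library was left out (adjusted p = 0.141 and 0.109). In Doxo+Cyta over NT, INSR passed by DESeq2 (adjusted p = 0.0149), without the filter on low counts (adjusted p = 0.0381), without Doxo replicate 4 (adjusted p = 0.0467) and without Doxo+Cyta+DAC replicate 31 (adjusted p = 0.0358). Without that same replicate 31, INSR also passed in Doxo+Cyta+DAC over NT (1.42, adjusted p = 0.0339). The INSR difference from Doxo+Cyta was lost without Doxo+Cyta replicate 20 (-0.71, adjusted p = 0.169) and without Doxo+Cyta+DAC replicate 30, 31 or 32 (adjusted p = 0.0598, 0.0834 and 0.0926), and when only these groups were fitted (adjusted p = 0.0714).

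**Figure D3:**
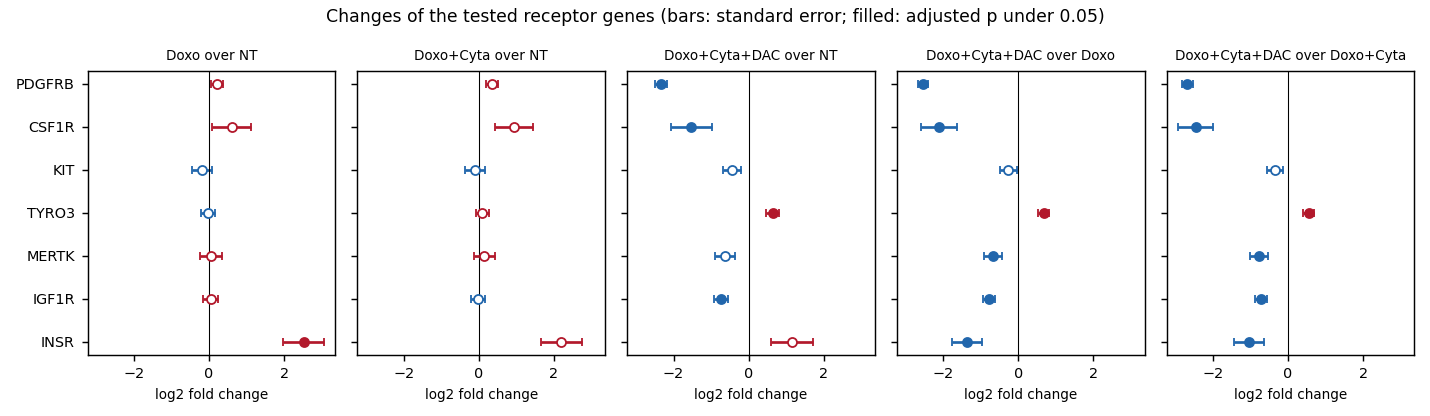
Log2 fold change with its standard error (bars) of the 7 tested receptor genes other than MET in 5 comparisons; filled points passed an adjusted p under 0.05, red points are higher and blue points lower in the group named first. PDGFRB lies between -2.69 and -2.33 in the 3 comparisons with Doxo+Cyta+DAC, and INSR is the filled point of Doxo over NT.

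Counted together, 1 of the 7 tested members other than MET (INSR, higher) passed the test in Doxo over NT, where 10.7% of all tested genes passed. INSR entered that test only through treated libraries. None of the 7 passed in Doxo+Cyta over NT, where 1.46% of all genes passed by edgeR, and 2 members (INSR and PDGFRB) had an unadjusted p under 0.05 and 1 passed by DESeq2. None passed in Doxo+Cyta over Doxo, where 3.4% of all genes passed by edgeR, 0 members had an unadjusted p under 0.05 and 0 passed by DESeq2. In Doxo+Cyta+DAC the same 7 gave 4 calls over NT (1 higher, 3 lower), beside 48.7% of all tested genes (24.9% higher, 23.7% lower). There were 6 calls over Doxo (1 higher, 5 lower), beside 59.5% of all genes (29.1% higher, 30.4% lower), and 6 over Doxo+Cyta (1 higher, 5 lower), beside 60.3% (29.8% higher, 30.5% lower). At a fold over 2 and an adjusted p under 0.01, 1 of the 7 (PDGFRB) passed in Doxo+Cyta+DAC over NT, beside 16.2% of all tested genes, 3 (PDGFRB, CSF1R and INSR) over Doxo, beside 21.6%, and 2 (PDGFRB and CSF1R) over Doxo+Cyta, beside 23.3%. At that threshold 0 of the 7 passed in Doxo over NT (1.55% of all genes), in Doxo+Cyta over NT (0%) and in Doxo+Cyta over Doxo (0.374%). In Doxo+Cyta+DAC over NT, over Doxo and over Doxo+Cyta, the median log2 fold change of the 7 was -0.63, -0.78 and -0.78. That of all tested genes was 0.02, -0.01 and 0.00. The list was picked with results of these data known, and MET, which was higher, is left out. The medians therefore describe these 7 genes only. The 3 comparisons share the Doxo+Cyta+DAC libraries and are not independent of each other.

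The wider pathway was read from 5 lists with 115 genes, of which 83 were tested. In Doxo+Cyta+DAC over NT 45 of the 83 passed the test (17 higher, 28 lower), 49 passed over Doxo (16 higher, 33 lower) and 44 over Doxo+Cyta (15 higher, 29 lower). These counts stand beside 48.7, 59.5 and 60.3% of all tested genes. The 48.7% is also the share to set beside the counts over NT of each list below. In Doxo over NT 6 passed, and in Doxo+Cyta over Doxo 1, SOS1, an exchange factor that activates RAS (log2 fold change -0.59, SE 0.15, edgeR adjusted p = 0.0467). In Doxo+Cyta over NT 0 passed, 11 had an unadjusted p under 0.05 and 2 passed by DESeq2. The share of pathway genes called after decitabine was near that of all tested genes given above, and the median log2 fold change of the 83 lay at -0.10, -0.26 and -0.24.

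Among 12 ligand genes of the members, 7 were tested, and 2 passed over NT. CSF1, the ligand of CSF1R, averaged 43.8 ± 3.18 CPM (SD, n = 4) in Doxo+Cyta+DAC and 91.2 ± 5.53 CPM (SD, n = 2) in NT (-1.06 on the log2 scale, SE 0.16, edgeR adjusted p = 0.000171). PDGFD, a ligand of PDGFRB, averaged 8.23 ± 2.48 CPM against 3.54 ± 1.23 CPM (1.22, SE 0.41, adjusted p = 0.0249), and this call was lost without NT replicate 1 and without Doxo+Cyta+DAC replicate 31. PDGFB, the other PDGFRB ligand of the list, fell over Doxo from 2.20 to 0.612 CPM (-1.85, SE 0.43, adjusted p = 0.00221), and FLT3LG, the ligand of FLT3, fell over Doxo+Cyta from 17.6 to 8.72 CPM (-1.01, SE 0.17, adjusted p = 0.000135). In NT, PDGFB averaged 0.880 CPM and FLT3LG 10.7 CPM, and neither passed in Doxo+Cyta+DAC over NT. HGF, the ligand of MET, averaged 6.99 CPM in Doxo+Cyta+DAC and 5.89 CPM in NT and did not pass (0.25, SE 0.31, adjusted p = 0.529). KITLG, IGF1, IGF2 and INS stayed below the filter on low counts, and PROS1, the gene of protein S, did not pass over NT (0.01, SE 0.17, adjusted p = 0.982).

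Of 13 genes for proteins that process or bind the ligands, 8 were tested, and 6 passed over NT (3 higher, 3 lower). SPINT1, an inhibitor of the proteases that activate hepatocyte growth factor, fell from 10.2 to 3.69 CPM (log2 fold change -1.46, SE 0.19, edgeR adjusted p = 4.49e-05). IGFBP5, a binding protein of insulin-like growth factors, rose from 159 ± 12.7 CPM (SD, n = 2) to 333 ± 70.9 CPM (SD, n = 4) (1.06, SE 0.25, adjusted p = 0.00356). IGFBP2 rose from 56.7 to 120 CPM (1.08, SE 0.41, adjusted p = 0.0416), a call lost in 10 alternatives, and IGFBP4 fell over Doxo+Cyta from 825 to 421 CPM (-0.97, SE 0.17, adjusted p = 0.000194). IGFBP4 averaged 546 CPM in NT and did not pass over NT. Over Doxo+Cyta, IGFBP5 rose (1.52, SE 0.22, adjusted p = 5.19e-05) while IGFBP4 fell, so against that group these binding proteins changed in both directions.

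All 24 adaptors and first effectors were tested, and 13 passed over NT (4 higher, 9 lower). CRK, an SH2 and SH3 adaptor, rose from 16.8 ± 0.374 CPM (SD, n = 2) to 45.3 ± 4.32 CPM (SD, n = 4) (log2 fold change 1.43, SE 0.18, edgeR adjusted p = 2.84e-05). GAB2, a docking protein downstream of KIT and other receptors, fell from 23.1 to 10.5 CPM (-1.13, SE 0.28, adjusted p = 0.00412), and NCK2, an adaptor that links receptors to the cytoskeleton, fell from 12.7 to 6.07 CPM (-1.06, SE 0.21, adjusted p = 0.00119). PIK3CD, a catalytic subunit of PI3K in blood cells, fell over Doxo+Cyta from 28.5 to 14.2 CPM (-1.0, SE 0.16, adjusted p = 8.33e-05). IRS2, the docking protein of INSR and IGF1R, rose in Doxo from 11.4 to 28.8 CPM (1.34, SE 0.26, adjusted p = 0.00756) and stood at 11.5 CPM in Doxo+Cyta+DAC, lower than in Doxo (-1.32, SE 0.21, adjusted p = 0.000102). The rise of IRS2 in Doxo was lost without either NT library.

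Negative regulators had 16 of 18 genes tested, and 8 passed over NT (3 higher, 5 lower). CBLB, a ubiquitin ligase that promotes receptor turnover, fell from 10.1 to 2.55 CPM (log2 fold change -1.99, SE 0.28, edgeR adjusted p = 8.98e-05), and it was also lower than in Doxo and in Doxo+Cyta (-1.98 and -2.16). SH2B3, the adaptor LNK that restrains KIT and cytokine receptor signals, rose from 139 to 273 CPM (0.97, SE 0.20, adjusted p = 0.00128). PTPN6, the phosphatase SHP-1, fell over Doxo+Cyta from 250 ± 20.8 CPM (SD, n = 3) to 126 ± 17.5 CPM (SD, n = 4) (-0.99, SE 0.11, adjusted p = 4.84e-06). LRIG1, which lowers receptor levels, rose over Doxo+Cyta from 0.458 to 1.75 CPM (1.95, SE 0.61, adjusted p = 0.0131), a call lost without Doxo+Cyta replicate 19 or 22. It averaged 0.785 CPM in NT and did not pass over NT. In Doxo over NT, LRIG3 fell from 7.76 to 2.33 CPM (-1.74, SE 0.31, adjusted p = 0.00530) and ERRFI1, a feedback inhibitor of ERBB receptors, rose from 3.17 to 6.23 CPM (0.97, SE 0.24, adjusted p = 0.0232), and both calls were lost without either NT library, that of ERRFI1 also without Doxo replicate 5 or 6.

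**Figure D4:**
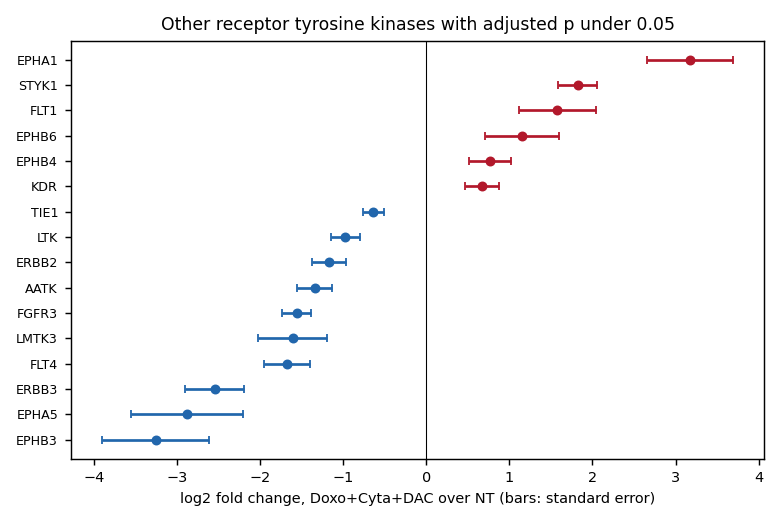
Log2 fold change with its standard error (bars) of the 16 receptor tyrosine kinase genes outside the 10 members that passed an adjusted p under 0.05, Doxo+Cyta+DAC over NT; red points are higher and blue points lower in Doxo+Cyta+DAC. The points number 6 on the higher side, led by EPHA1 at 3.17, and 10 on the lower side, ended by EPHB3.

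The other receptor tyrosine kinases numbered 48, of which 28 were tested, and 16 of these passed in Doxo+Cyta+DAC over NT (6 higher, 10 lower). EPHA1, a receptor of ephrins, rose from 0.474 to 4.30 CPM (log2 fold change 3.17, SE 0.52, edgeR adjusted p = 0.00024), and STYK1, a kinase of the receptor type, rose over Doxo+Cyta from 3.57 to 14.5 CPM (2.02, SE 0.20, adjusted p = 2.01e-06). ERBB3, a receptor of neuregulins, fell over NT from 1.91 to 0.317 CPM (-2.55, SE 0.36, adjusted p = 8.02e-05), and EPHB3 fell over Doxo from 1.01 to 0.0501 CPM (-4.19, SE 0.54, adjusted p = 1.98e-05). EPHB3 held 3 counts in all in the Doxo+Cyta+DAC libraries, at most 0.0792 CPM in any of them. That is below the level taken as detected, so the size of its fall cannot be read. EPHB4 fell in Doxo over NT from 20.1 to 7.52 CPM (-1.42, SE 0.27, adjusted p = 0.0073) and stood at 34.0 CPM in Doxo+Cyta+DAC, higher than in Doxo (2.19, SE 0.24, adjusted p = 5.86e-06). EPHB1 rose over Doxo+Cyta from 0.570 to 2.78 CPM (2.30, SE 0.52, adjusted p = 0.00161). It averaged 1.40 CPM in NT and did not pass over NT. EPHA5 and FLT4, a receptor of lymphatic vessels, fell in Doxo over NT (-2.99, SE 0.75, adjusted p = 0.0228, and -1.24, SE 0.30, adjusted p = 0.0197), and the EPHA5, FLT4 and EPHB4 calls in Doxo were lost without either NT library, those of EPHA5 and FLT4 also without Doxo replicate 5 or 6. The median log2 fold change of the 28 over NT was -0.04.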

How the data were processed

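RNA was sequenced from 12 libraries of HEL cells (NT 2, Doxo 3, Doxo+Cyta 3, Doxo+Cyta+DAC 4), as TruSeq paired-end reads that do not mark strand. Per the submitters' processing notes and the file header, the authors aligned the reads to GRCh38 with Bowtie2 2.2.8 and made the deposited counts of fragments per gene with featureCounts 1.6.0 from Subread, without strand and without chimeric fragments. Bowtie2 does not split reads over exon junctions, so such fragments can be lost, and reads of overlapping antisense genes cannot be told apart. The deposited counts are not normalized. The deposited gene length, a column of summed exon bases, served for CPM per kb. Of 26485 genes, 4 lacked a count in 1 library, among them the receptor gene DDR1, and 26481 were kept.

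Counts were fitted with edgeR 4.0.16 in R 4.3.3 (TMM scaling, filterByExpr, glmQLFit and glmQLFTest, all 12 libraries in 1 model with group as the only term). P-values were two-sided, adjusted over 14164 tested genes per comparison by the Benjamini-Hochberg method and called under 0.05. Standard errors of log2 fold changes were derived from the F statistic (absolute value over its root). Log2 CPM was stabilised with a prior count of 2, while the fitted log2 fold changes kept the default of edgeR. Samples of a group are separate cultures of 1 cell line, labelled as biological replicates, so p-values measure the spread between these cultures. The labels name no batch or date. No pair of libraries in a group agreed within counting noise. Scripts were tested on simulated data.

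The members, the lists and the rule for named genes were chosen with earlier results of these data known. Named pathway genes are, per list and comparison, at most 3 genes with the largest change among those called, provided the group with more reads averaged 1 CPM or above and the libraries did not overlap. Some genes that meet this rule are not reported here. HGF and PROS1 were added after their values were seen. Also named were the 5 genes most like MET and the protein-coding genes within 1 Mb of it. Start sequences are from RefSeq (GRCh38.p14), where all 10 members matched, and gene positions were compared with GENCODE 44. Alternatives were the Wald test of DESeq2 1.42.0, scaling by RLE or by the upper quartile, omission of the low-count filter, a minimum of 10 counts in each sample, a fit of only the groups compared, calls at a fold over 2 and an adjusted p under 0.01, and each of the 12 libraries left out. Tables and figures used Python 3.11.15, numpy 2.4.6, pandas 2.3.3, scipy 1.17.1 and matplotlib 3.10.9.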

Additional observations from a re-analysis of the deposited data

Results flagged for a closer look

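PDGFD, a ligand gene of PDGFRB, stood at 11.9 CPM in Doxo+Cyta+DAC replicate 31, while the other 3 libraries of that group lay between 6.66 and 7.53 CPM. The gap of this library to its neighbour was 0.834 of the range of the group, just past the 95% critical value of Dixon's test for 4 samples. In all, 36 genes were examined in this way, and about 1 in 20 such groups passes by chance. Replicate 31 was also the library with the highest MET value.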

How the results depend on the processing

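No paired analysis was possible because the groups compared share no replicate numbers in the labels. Calls at a fold over 2 and an adjusted p under 0.01 gave 0 members in Doxo over NT, 1 in Doxo+Cyta+DAC over NT, 3 over Doxo and 2 over Doxo+Cyta, and 3, 17, 17 and 22 pathway genes in the same order, with 0 pathway genes in Doxo+Cyta over Doxo (shares of all genes at this threshold stand beside the members above). DESeq2 gave 2 members in Doxo over NT (15.2% of all genes), of which MET, let through the filter only by its Doxo+Cyta+DAC libraries, is not read as a call, 1 member and 2 pathway genes in Doxo+Cyta over NT (5.9%), and 8 pathway genes in Doxo+Cyta over Doxo (6.59%). Without the filter on low counts, 1 member and 1 pathway gene passed in Doxo+Cyta over NT (1.76% of all genes) and 6 pathway genes in Doxo+Cyta over Doxo (2.56%). At least 10 counts in every sample left 0 members in Doxo over NT (11.5% of all genes), a fit in which INSR was not tested. With that filter, with RLE scaling or with upper-quartile scaling, 0 pathway genes passed in Doxo+Cyta over Doxo (3.99, 3.42 and 3.21% of all genes). Fitting only the groups compared also gave 0 pathway genes there, beside 67 genes in all. In Doxo over NT that fit gave 11 pathway genes, beside 1650 of all 13647 genes tested.

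Leaving out 1 library at a time gave 0 to 1 members in Doxo over NT and in Doxo+Cyta over NT, 3 to 6 in Doxo+Cyta+DAC over NT, 5 to 6 over Doxo and over Doxo+Cyta, and 0 in Doxo+Cyta over Doxo. The share of all genes called moved too, in these comparisons from 0.555 to 22.2%, 0 to 5.04%, 30.6 to 54.9%, 49.3 to 64.0%, 53.9 to 62.4% and 0.921 to 6.21%. Pathway genes numbered 0 to 10 in Doxo over NT, 0 to 1 in Doxo+Cyta over NT, 25 to 50 in Doxo+Cyta+DAC over NT, 39 to 54 over Doxo, 41 to 51 over Doxo+Cyta and 0 to 7 in Doxo+Cyta over Doxo. The lower ends in the comparisons of Doxo and of Doxo+Cyta+DAC with NT (0 and 25 pathway genes) came from leaving out NT replicate 1 or 2, where the remaining NT library is assumed to vary like the other groups. The log2 fold change of MET in these fits was 1.65 to 2.67 over NT and 3.41 to 5.30 over Doxo+Cyta. Over Doxo it was 6.99 to 8.00, but MET had 0 counts in every Doxo library. No size can therefore be read from that value beyond the lower bound given above. The cause of the shifts between these fits was not tested.

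Directions turned only for small differences that passed no test. With upper-quartile scaling and without the filter, Doxo over NT turned for MERTK (-0.007 and -0.011) and IGF1R (-0.002 and -0.010). Leaving out 1 library turned the sign of 10 such differences, which ranged in Doxo over NT from -0.141 to 0.054 for TYRO3, -0.099 to 0.176 for MERTK and -0.021 to 0.08 for IGF1R. In Doxo+Cyta over NT the ranges were -0.441 to 0.171 for KIT, -0.079 to 0.241 for MERTK and -0.2 to 0.164 for IGF1R. In Doxo+Cyta over Doxo they were -0.229 to 0.382 for KIT, -0.283 to 0.658 for CSF1R, -0.095 to 0.228 for MERTK and -0.216 to 0.148 for IGF1R. Depth limits MET, CSF1R and INSR, which rested on at most 93 counts in any library, and FLT3 and AXL, with at most 4 counts in any library, did not pass the filter. A second scaling moved the median of all genes by less than 0.1 on the log2 scale.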
